A study of Mus musculus with 4 samples.

Results

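The genes of the fetal LIN28, IGF2BP and HMGA axis followed here in mouse thymospheres were Lin28a, Lin28b, Trim71, Igf2bp1, Igf2bp2, Igf2bp3, Hmga1, Hmga2 and Arid3a. They were chosen by name as genes under control of the let-7 microRNAs in fetal tissue, and their probes were found through the RefSeq accession that the array files give for each probe. All 9 genes had probes, 16 of the 55681 probes on the array, which stood for 21154 named genes in all. Thymospheres are free-floating aggregates that grow when dissociated thymus is kept in dishes to which cells cannot attach. The 2 groups were spheres grown from embryonic thymus of day 14.5 (2 arrays) and spheres grown from adult thymus at 5 to 6 weeks of age (2 arrays). All mice were of the C57Bl6/N strain with no stated transgene or mutation, and all spheres grew for 7 days in medium with B27 supplement, hydrocortisone, insulin, EGF and bFGF, with fresh medium on day 5. The labels do not say how many animals gave each sample. They speak of both biological and technical replication but do not assign it to arrays, so p-values measure the spread between these arrays, which may be technical.

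LIN28 proteins bind the precursors of let-7 microRNAs and block their maturation, and mature let-7 in turn lowers the messenger RNAs of Lin28, Trim71, Igf2bp, Hmga2 and Arid3a genes. The loop keeps let-7 low in early embryonic tissue and high in adult tissue, and in blood formation it separates fetal from adult progenitors. IGF2BP proteins bind messenger RNAs, among them that of the fetal growth factor Igf2, while HMGA proteins bind AT-rich DNA in chromatin. Mature let-7 was not measured on these arrays.

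The 9 let-7 family members below are shown because their shared seed, bases 2 to 8 in capitals, is what ties the listed genes together. The sequences are those of RefSeq on GRCm38.p6.
mmu-let-7a-5p: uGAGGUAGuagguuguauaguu
mmu-let-7b-5p: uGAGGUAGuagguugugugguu
mmu-let-7c-5p: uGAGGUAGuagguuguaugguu
mmu-let-7d-5p: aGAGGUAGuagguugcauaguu
mmu-let-7e-5p: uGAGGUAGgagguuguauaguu
mmu-let-7f-5p: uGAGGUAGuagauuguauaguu
mmu-let-7g-5p: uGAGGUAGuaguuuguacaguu
mmu-let-7i-5p: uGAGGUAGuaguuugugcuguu
mmu-miR-98-5p: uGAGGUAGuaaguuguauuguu
All 9 carry the seed GAGGUAG, and 11 of the 1679 mature mouse microRNA names in the same table do. They differ from each other only outside the seed.

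LIN28 is known to contact a GGAG in the loop of let-7 precursors, so the precursors were searched for these letters on the RNA strand, between the ends of the annotated 5p and 3p arms. Of 11 let-7 family hairpins with both arms annotated, 8 held GGAG there, against 44 of 633 other mouse hairpins (6.95%). The first 3 hairpins below hold it, in capitals, and the last does not.
Mirlet7d (chr13:48536012-48536114, minus strand): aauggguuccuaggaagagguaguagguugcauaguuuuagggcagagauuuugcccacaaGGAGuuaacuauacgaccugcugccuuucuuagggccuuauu
Mirlet7g (chr9:106178840-106178927, plus strand): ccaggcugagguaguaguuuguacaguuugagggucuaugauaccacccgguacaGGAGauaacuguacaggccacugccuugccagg
Mirlet7f-1 (chr13:48537829-48537917, minus strand): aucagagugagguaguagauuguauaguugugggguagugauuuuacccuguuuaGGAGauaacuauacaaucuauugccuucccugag
Mirlet7c-2 (chr15:85706603-85706697, plus strand): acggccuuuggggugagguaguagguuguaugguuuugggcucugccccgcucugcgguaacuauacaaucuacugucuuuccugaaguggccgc
A match describes the letters and is not a measured binding site.

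Signals are given as normalised log2 signal, which is log2 of the processed Cy3 signal minus the array's 75th percentile. A value of 0 is thus the signal of the 75th percentile, which was 126 and 61.5 on the embryonic arrays and 132 and 66.0 on the adult arrays. Detection was uneven, with 48.3% and 35.7% of spots well above background on the embryonic arrays and 71.6% and 49.6% on the adult ones. The lowest signal well above background lay at -3.15 and -1.72 on the embryonic arrays and at -3.05 and -2.31 on the adult arrays, so a lower value is only a bound. Adult array 2 stood apart with 2756 spots marked as outliers by the scanner software, against 95 to 185 on the other arrays. None of the 16 probes was marked on any array. The 4 arrays lay on 1 slide, and position on the slide and group cannot be told apart.

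Both kinds of sphere held epithelial and stromal transcripts. Of 8 thymic epithelial markers 6 and 6 were detected on the embryonic arrays and 8 and 5 on the adult arrays, and their summed linear signal, over the 7 with a value on every array and in units of the 75th percentile, was 145 and 268 against 50.01 and 30.05. The defining genes Psmb11 and Aire were detected on adult array 1 only. They were not tested, since a test asked for both arrays of a group. All 8 fibroblast markers were detected on all 4 arrays (summed signal 684 and 411 in embryonic spheres, 377 and 380 in adult spheres). Of 8 macrophage markers 7 and 6 were detected on the embryonic arrays and 7 and 7 on the adult arrays (summed signal 34.4 and 23.8, against 11.2 and 13.6). Of 8 endothelial markers 3 and 1 were detected, against 8 and 6 on the adult arrays, of 8 T lineage markers 3 and 3, against 6 and 4, and of 8 erythroid markers 1 and 0, against 4 and 2. Their summed signals did not follow the detection counts alike, with 16.1 and 26.1 against 17.1 and 19.2 for the endothelial list, 9.79 and 11.7 against 7.29 and 7.14 for the T lineage list, and 0.588 and 0.949 against 2.31 and 1.21 for the erythroid list. Such a sum is weighted to its brightest gene, here Kdr (normalised log2 signal 3.95 and 4.66 against 3.44 and 3.89, not called) and Cd4. In the test described below, 4 of 6 endothelial markers tested were called lower and 0 higher, with a median log2 fold change of -2.78. Over all tested genes 17.5% were called lower and 36.1% higher. Cdh5, Esam and Robo4, called lower, passed through the adult arrays only, so a difference was built into their selection. The leukocyte gene Ptprc was well above background only on adult array 1. In whole spheres, fewer cells of a type and less RNA per cell cannot be told apart. Probes for sensory receptors, which most tissues do not express, were also more often well above background on the adult arrays, as given below. The part of such signal in the marker detection counts was not tested.

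By their calls, the listed genes did not move as one. Igf2bp1, Igf2bp2, Igf2bp3 and Hmga2 were higher in embryonic spheres, Lin28b and Trim71 were lower, and Lin28a, Hmga1 and Arid3a did not pass the test. The 2 lower calls rest on 1 of 2 probes each, dim on both embryonic arrays, and were lost with normexp background correction. The 5 listed genes measured on all 4 arrays had log2 fold changes above 0, as had the median of all tested genes. The test was limma's moderated test of embryonic minus adult over 13660 genes, with Benjamini-Hochberg adjusted p-values and a threshold of 0.05. Over all tested genes 53.5% were called, 36.1% higher and 17.5% lower in embryonic spheres, so that 4 higher and 2 lower of 9 listed genes is near the background. With the log2 fold changes centred on the tested genes, that is with the tested genes' median at 0 on each array, the listed genes gave 2 higher and 2 lower calls, beside 7.62% and 20.3% of all tested genes. The median log2 fold change was 1.34 over the listed genes and 0.79 over all tested genes. The median over all tested genes moved with the scaling, to 0.14 with the tested genes' median at 0 on each array and to 1.98 with the median of all probes, and every fold change below is to be read against it.

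**Figure D1:**
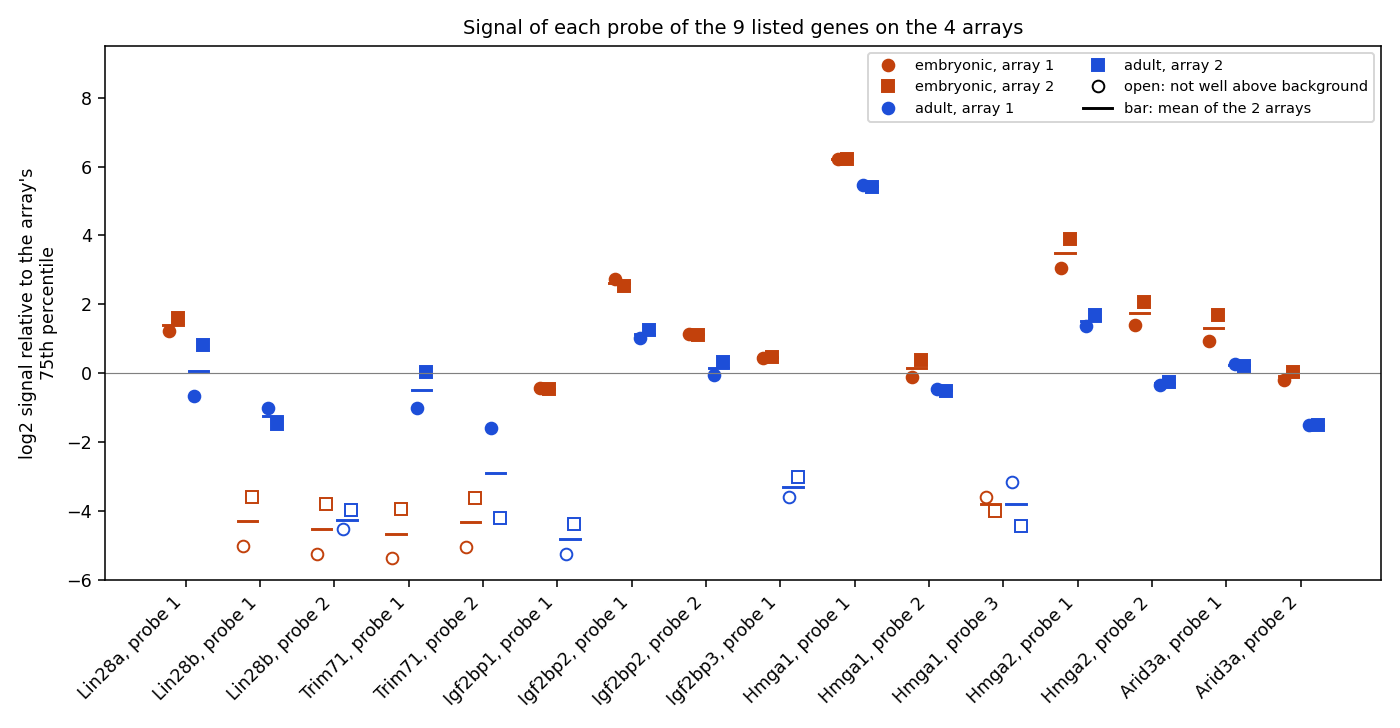
Normalised log2 signal (y axis) of each of the 16 probes (x axis), with embryonic arrays in orange on the left and adult arrays in blue on the right of each position. Open symbols mark signals not well above background and bars the mean of 2 arrays. The Igf2bp1 and Igf2bp3 probes are open only in adult spheres, and the first Lin28b and Trim71 probes only in embryonic spheres.

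All 9 genes had at least 1 probe that passed the filter, which asked that both arrays of the embryonic or of the adult group be well above background. Of the 16 probes 13 passed. The 5 genes Lin28a, Igf2bp2, Hmga1, Hmga2 and Arid3a were measured on all 4 arrays. The other 4 (Lin28b, Trim71, Igf2bp1 and Igf2bp3) passed through 1 group only, so that a difference was built into their selection. Their counts are given as a description. Among the 9622 tested genes measured on all 4 arrays 43.8% were called higher and 2.35% lower, beside 2 higher and 0 lower of the 5 listed genes of that kind in limma, and also 0 lower at an unadjusted p under 0.05. In a separate fit that tested each of 17070 probes on its own, 35.4% of probes were called higher and 16.7% lower.

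Igf2bp1, which encodes an RNA-binding protein that stabilises growth-related messenger RNAs and is found mainly before birth, was detected only in embryonic spheres. Its probe had a normalised log2 signal of -0.44 and -0.46 on the embryonic arrays, against -5.24 and -4.38 on the adult arrays, where the scanner signals of 3.50 and 3.18 were not well above background. The groups stood far apart, and the embryonic arrays lay close together. The adult level was only a bound. The signal of Igf2bp1 in embryonic spheres was thus at least 4.69-fold higher, or at least 2.97-fold with the tested genes' median at 0. The fitted log2 fold change was 4.36 (SE 0.39, adjusted p = 0.00735 in limma). With normexp background correction the log2 fold change was 1.05 (adjusted p = 0.0485), a smaller change than either bound. The bounds thus hold only for the scaling and background subtraction used.

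Igf2bp3, the paralogue known from fetal tissues and many tumours, had the same pattern. Its probe read 0.45 and 0.46 on the embryonic arrays, against -3.60 and -3.01 on the adult arrays. The adult signals of 10.9 and 8.18 lay under the lowest well measured signals of those arrays, 16.0 and 13.3. The bound for Igf2bp3 was at least 8.76-fold higher signal in embryonic spheres, or at least 5.55-fold with the tested genes' median at 0. The fitted log2 fold change was 3.76 (SE 0.35, adjusted p = 0.00735 in limma). With normexp the log2 fold change of Igf2bp3 was 1.37 (adjusted p = 0.0234), again a smaller change than either bound. Igf2bp1 and Igf2bp3 each have 1 probe on the array, so no other probe bears on them.

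Igf2bp2, the family member that stays on in adult tissues such as muscle and fat, was measured in both groups. Its brighter probe read 2.73 and 2.52 in embryonic spheres, against 1.03 and 1.24 in adult spheres, with means of 2.63 ± 0.15 and 1.14 ± 0.15 (SD, n = 2 each). The groups did not overlap, and Igf2bp2 rose by 1.49 on the log2 scale (SE 0.31, 95% interval 0.72 to 2.27, adjusted p = 0.0155), which is 2.81-fold. The dimmer probe read 1.14 and 1.12 against -0.06 and 0.33 and was called as well when each probe was tested on its own (log2 fold change 1.00, SE 0.33, adjusted p = 0.0473). The call was lost with the tested genes' median at 0 (log2 fold change 0.83, adjusted p = 0.102). The 3 family members thus had the same direction, and the differences in size between them were not tested because 2 of the 3 are bounds.

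Hmga2, an architectural chromatin protein of embryonic and mesenchymal cells and a classical let-7 target, was higher in embryonic spheres on both probes. The brighter probe read 3.05 and 3.90 in embryonic spheres and 1.36 and 1.68 in adult spheres, with means of 3.47 ± 0.61 and 1.52 ± 0.23 (SD, n = 2 each). Hmga2 rose by 1.95 on the log2 scale (SE 0.41, 95% interval 0.94 to 2.97, adjusted p = 0.0154), or 3.87-fold, above the change of 92.3% of tested genes. The second probe read 1.40 and 2.07 against -0.35 and -0.25 (log2 fold change 2.03, SE 0.37, adjusted p = 0.0118 in the test of each probe). The embryonic readings of both probes all stood above the adult readings of the same probe. With the tested genes' median at 0 the brighter probe missed the threshold (log2 fold change 1.30, adjusted p = 0.0727).

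Hmga1, the paralogue that many dividing cells express, was not called. Its brightest probe read 6.21 and 6.22 in embryonic spheres and 5.47 and 5.40 in adult spheres. The groups did not overlap, yet the log2 fold change of 0.79 (SE 0.30, 95% interval 0.04 to 1.53, adjusted p = 0.0696) was -0.01 relative to the median of all tested genes. Its sign turned with quantile normalization (-0.03) and in the authors' deposited value table (-0.14). A second probe, for other transcripts of the gene, read -0.11 and 0.39 against -0.46 and -0.51 (log2 fold change 0.63, adjusted p = 0.159), and another was not well above background on any array. Hmga1b, a near-identical copy of Hmga1 elsewhere in the genome, may share its probes, so the Hmga1 signal is uncertain to that extent.

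**Figure D2:**
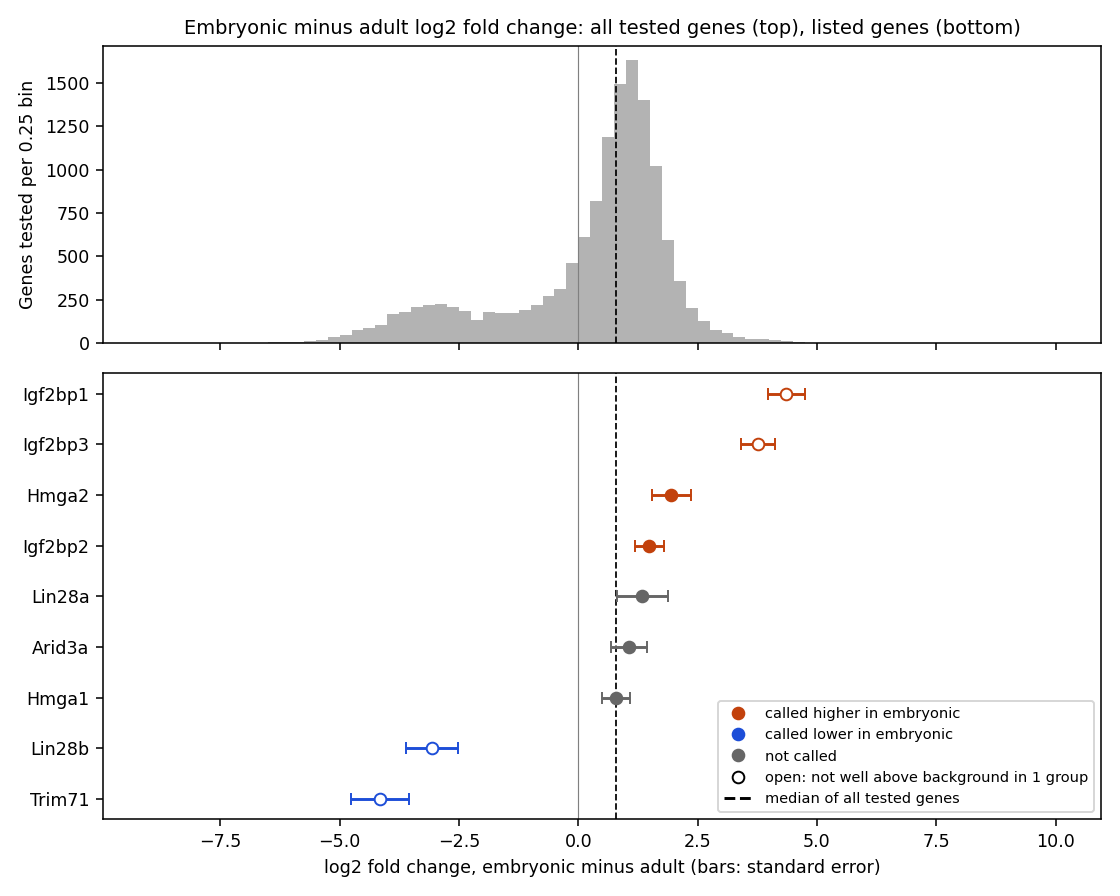
Log2 fold change, embryonic minus adult (x axis), as the number of tested genes per bin (top, y axis) and for each of the 9 listed genes with its standard error (bottom). The dashed line is the median of all tested genes, 0.79; Igf2bp1 (4.36) and Igf2bp3 (3.76) lie far to its right, Lin28b (-3.06) and Trim71 (-4.16) in the left-hand hump, and open circles mark genes not well above background in 1 group.

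Of the Lin28 paralogues only Lin28a was measured in both groups. Lin28a, the RNA-binding protein of embryonic stem cells, read 1.23 and 1.59 in embryonic spheres, against -0.66 and 0.81 in adult spheres. The means were 1.41 ± 0.25 and 0.07 ± 1.04 (SD, n = 2 each), and the wide spread of the adult arrays was unlike that of the other listed genes measured on all 4 arrays. The log2 fold change of 1.34 (SE 0.54, 95% interval -0.02 to 2.70, adjusted p = 0.0831) did not pass the test. It was called under 5 of 16 alternatives, and it came to 0.60 without adult array 1 and to 2.07 without adult array 2.

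Lin28b, the paralogue that marks fetal blood formation, was detected in adult spheres and not in embryonic ones. One probe read -5.01 and -3.59 on the embryonic arrays, not well above background, against -1.01 and -1.47 on the adult arrays. Lin28b was thus at least 2.29-fold lower in embryonic spheres, or at least 3.61-fold with the tested genes' median at 0 (fitted log2 fold change -3.06, SE 0.54, adjusted p = 0.0116). The other Lin28b probe was not well above background on any array (-5.26 and -3.79 in embryonic spheres, -4.53 and -3.98 in adult spheres), so the adult signal rests on 1 of 2 probes. With normexp background correction the log2 fold change was -0.59 and no longer called (adjusted p = 0.133). In the authors' deposited value table the log2 fold change of Lin28b was -0.88 (adjusted p = 0.048 in limma). Both are smaller changes than either bound.

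Trim71, a ubiquitin ligase and RNA-binding protein of early embryos whose worm counterpart lin-41 was among the first let-7 targets known, had the same pattern. One probe read -5.37 and -3.95 on the embryonic arrays, not well above background, against -1.02 and 0.02 on the adult arrays. Trim71 was at least 3.82-fold lower in embryonic spheres, or at least 6.02-fold with the tested genes' median at 0 (fitted log2 fold change -4.16, SE 0.61, adjusted p = 0.00913). Its other probe was well above background on adult array 1 only, with -5.04 and -3.62 in embryonic spheres and -1.59 and -4.20 in adult spheres. With normexp the log2 fold change was -0.86 (adjusted p = 0.0752). In the authors' deposited value table the log2 fold change of Trim71 was -1.41 (adjusted p = 0.0101 in limma). Both are again smaller changes than either bound.

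Lin28b and Trim71 were among many genes called lower whose tested probe was dim on both embryonic arrays. Among the 2385 genes with lower calls 1710 (71.7%) had no embryonic array well above background, whereas 3.71% of the genes with higher calls had no adult array well above it. Probes for sensory receptors of smell, taste and trace amines, which most tissues do not express, were counted as well. Of 1507 such probes 6.10% and 2.26% were well above background on the embryonic arrays, against 51.3% and 23.2% on the adult arrays. The part of this adult signal in the Lin28b and Trim71 results was not tested. Pluripotency genes, the company that Lin28a and Trim71 keep in early embryos, gave a mixed picture. Of 10 listed, 6 were tested, 1 rose and 2 fell, beside 36.1% and 17.5% of all tested genes called higher and lower. The median log2 fold change of the list was 0.16, beside 0.79 over all tested genes. Klf4, which also marks differentiating epithelium, rose by 2.25 (SE 0.49, adjusted p = 0.0168). It was not called with the tested genes' median at 0 (adjusted p = 0.063). Zfp42 was at least 2.76-fold lower in embryonic spheres (adjusted p = 0.0166) and Pou5f1 at least 2.35-fold lower (adjusted p = 0.031), both dim on both embryonic arrays, and Sox2, Dppa4, Dppa5a and Esrrb were too dim to be tested. Zfp42 and Pou5f1 passed the filter through the adult arrays only, so a difference was built into their selection. The number of pluripotency genes called lower was 0 with normexp, in the authors' deposited value table and with no filter on dim probes.

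Arid3a, a DNA-binding factor of B cell and blood development, lay close to the threshold. Its brighter probe read 0.92 and 1.68 in embryonic spheres and 0.28 and 0.21 in adult spheres, without overlap, and the log2 fold change of 1.06 (SE 0.37, 95% interval 0.12 to 1.99, adjusted p = 0.0589) was not called. The dimmer probe read -0.20 and 0.04 against -1.52 and -1.50 and was called when tested on its own (log2 fold change 1.43, SE 0.31, adjusted p = 0.0171). Both probes pointed the same way, and the call depended on the probe.

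Across the listed genes 7 had both embryonic arrays above both adult arrays on the tested probe and 2 had both below. Over the 13368 tested genes with a value on every array, 61.6% had both embryonic arrays above and 22.5% both below.

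Of 20 genes of the machinery that makes and uses microRNAs 19 were tested, 15 rose and 0 fell in limma, 0 fell also at an unadjusted p under 0.05, with a median log2 fold change of 1.35 beside 0.79 over all tested genes. Over all tested genes 36.1% were called higher, and 43.8% of those measured on all 4 arrays. Lower calls made up 17.5% of all tested genes and only 2.35% of those measured on all 4 arrays. Tut4, the enzyme that adds uridines to let-7 precursors bound by LIN28A, rose by 1.87 (SE 0.30, adjusted p = 0.0101). The helicase gene Ddx17 rose by 1.87 (SE 0.30, adjusted p = 0.0102) and Dgcr8, which pairs with Drosha in the first cut, by 1.66 (SE 0.30, adjusted p = 0.0125). Dicer1, which makes the second cut, rose by 1.60 (SE 0.48, adjusted p = 0.0368). With the tested genes' median at 0, Tut4 and Ddx17 were still called (adjusted p = 0.0311 and 0.0367) and the other 13 were not, beside 7.62% of all tested genes called higher at that scaling.

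Other genes known as let-7 targets were split. Of 28 listed 23 were tested, 12 rose and 5 fell, with a median log2 fold change of 1.08, beside 36.1% and 17.5% of all tested genes called higher and lower. The insulin and IGF signalling genes Irs2 (2.52, SE 0.36) and Igf1r (2.14, SE 0.31) rose, each with an adjusted p of 0.00913. Hif1an, an inhibitor of hypoxia signalling, had at least 4.13-fold higher signal in embryonic spheres, since it was not well above background on either adult array (adjusted p = 0.00867). Hif1an thus passed the filter through the embryonic arrays only, and a difference was built into its selection. The inflammatory cytokine gene Il6, bright enough on 1 of the 2 embryonic arrays, fell (fitted log2 fold change -4.81, SE 0.53, adjusted p = 0.00735). The growth regulator gene Myc did not pass (log2 fold change 0.95, SE 0.36, adjusted p = 0.0674). With the tested genes' median at 0, 5 were higher and 5 lower, beside 7.62% and 20.3% of all tested genes.

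Transcripts that IGF2BP, HMGA2 or LIN28 proteins are known to bind or control include Igf2, for which the IGF2BP family is named. Of 10 listed 8 were tested and 4 rose, beside 36.1% of all tested genes. In limma 0 fell, and 0 fell also at an unadjusted p under 0.05. Called lower were 17.5% of all tested genes and 2.35% of those measured on all 4 arrays. The median log2 fold change of the list was 1.20. Igf2 had at least 40.7-fold higher signal in embryonic spheres (fitted log2 fold change 6.89, SE 0.56, adjusted p = 0.00735), not being well above background on either adult array. The cell cycle inhibitor gene Cdkn1b (2.44, SE 0.31, adjusted p = 0.00771) and the growth factor gene Bmp4 (1.99, SE 0.33, adjusted p = 0.0105) rose. Igf2, Cdkn1b and Bmp4 were also called with the tested genes' median at 0. Igf2 passed the filter through the embryonic arrays only, so a difference was built into its selection and its calls are a description. Cdkn2a, a senescence gene that HMGA2 is known to hold down in young neural stem cells, was not called (log2 fold change 0.69, SE 0.39, adjusted p = 0.176). Cdkn2b, of the same list, rose by 1.44 (SE 0.33, adjusted p = 0.0194) but was not called with the tested genes' median at 0 (adjusted p = 0.112).

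Of 12 cell cycle genes, markers of dividing cells, 10 were tested and 3 rose, near the 36.1% of all tested genes. At an unadjusted p under 0.05 in limma 7 rose. Across the settings that kept all 4 arrays, 0 to 10 were called higher. In limma 0 fell, and 0 fell also at an unadjusted p under 0.05. Called lower were 17.5% of all tested genes and 2.35% of those measured on all 4 arrays. The median log2 fold change of the list was 1.09, beside 0.79 over all tested genes. Mcm5 (1.60, SE 0.38, adjusted p = 0.0208), Top2a (1.93, SE 0.51, adjusted p = 0.0276) and Pcna (1.19, SE 0.34, adjusted p = 0.0334) rose, and none of the 3 was called with the tested genes' median at 0. Of the adult arrays only 1 measured Top2a above background. The summed signal of the 12 was 51.5 and 27.8 in embryonic spheres, against 19.1 and 16.1 in adult spheres. The part of the epithelial, fibroblast and cell cycle signals in the results on Igf2bp and Hmga2 was not tested.

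**Figure D3:**
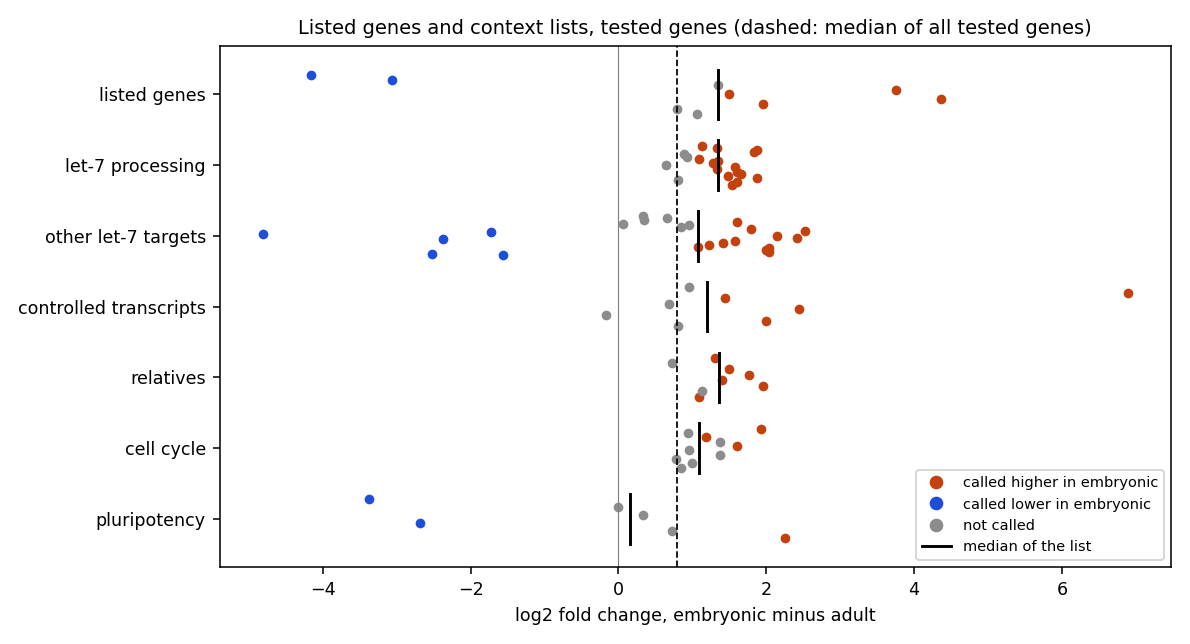
Log2 fold change, embryonic minus adult (x axis), of each tested gene of the 9 listed genes and of the 6 context lists (y axis), with the list median as a solid bar and the median of all tested genes, 0.79, as a dashed line. Vertical scatter within a list has no meaning. The microRNA machinery, the relatives and the cell cycle genes lie in a narrow band to the right of 0. The listed genes and the other lists, the let-7 targets among them, lie on both sides.

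Promoter windows, 250 bases before to 50 after the annotated start, were at hand for 7 of the 9 genes (RefSeq, GRCm38.p6). They are printed for 3 of the genes that were higher in embryonic spheres. The motifs searched, on both strands and in capitals below, were the GC box with the letters GGGCGG, which 35.7% of all 32851 windows held. The CCAAT box, searched as those letters, was held by 37.4% of windows. The TATA box with the letters TATAAA was held by 13.6% and the E-box with the letters CACGTG by 7.15%.
Igf2bp2 (chr16:22163250-22163549, minus strand): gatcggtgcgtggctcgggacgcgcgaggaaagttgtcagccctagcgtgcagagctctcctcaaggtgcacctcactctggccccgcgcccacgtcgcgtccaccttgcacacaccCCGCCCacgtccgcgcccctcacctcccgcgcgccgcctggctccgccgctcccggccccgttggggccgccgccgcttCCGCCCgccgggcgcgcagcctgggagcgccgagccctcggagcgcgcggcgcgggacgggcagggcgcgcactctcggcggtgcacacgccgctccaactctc
Igf2bp3 (chr6:49214905-49215204, minus strand): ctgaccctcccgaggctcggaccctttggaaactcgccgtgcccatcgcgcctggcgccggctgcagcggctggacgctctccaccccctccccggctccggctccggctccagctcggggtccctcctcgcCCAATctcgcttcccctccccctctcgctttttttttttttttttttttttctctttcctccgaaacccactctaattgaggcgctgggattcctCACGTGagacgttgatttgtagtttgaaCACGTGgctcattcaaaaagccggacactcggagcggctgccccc
Hmga2 (chr10:120476420-120476719, minus strand): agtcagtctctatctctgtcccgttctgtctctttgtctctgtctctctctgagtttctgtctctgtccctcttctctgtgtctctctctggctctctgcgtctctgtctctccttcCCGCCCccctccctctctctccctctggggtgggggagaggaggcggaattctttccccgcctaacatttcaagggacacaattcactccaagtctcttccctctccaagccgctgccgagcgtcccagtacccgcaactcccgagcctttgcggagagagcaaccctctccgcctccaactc
The windows of Igf2bp2 and Hmga2 held a GC box, and that of Igf2bp3 a CCAAT box and the E-box letters. None of the 3 held TATAAA. Their GC content was 76.7%, 57.7% and 60.3% for Igf2bp2, Hmga2 and Igf2bp3, beside a median of 52.7% over all windows. Windows not printed held the same letters. That of Lin28b, called lower, held a CCAAT box and the E-box letters, and that of Trim71, called lower, a GC box and a CCAAT box. The windows of Lin28a and Hmga1, not called, held a GC box. The matches describe these letters and this window only.

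The 8 listed genes other than Hmga1 kept their direction under every alternative in which they were tested, but not their calls. Igf2bp2 was called under 10 and Hmga2 under 11 of 16 alternatives. Without either adult array no gene of the 13660 was called, listed genes included, although limma gave unadjusted p-values under 0.05 for 6453 genes without adult array 1 and 5526 without adult array 2, with 6 and 7 of the listed genes among them. Without embryonic array 1 or without embryonic array 2, Igf2bp1, Igf2bp2, Igf2bp3 and Hmga2 were called higher and Lin28b and Trim71 lower. In each of these fits the group with 1 array is assumed to vary like the other group, whose 2 arrays alone give the spread, so the calls say nothing about stability. Without embryonic array 1 Lin28a (log2 fold change 1.52, adjusted p = 0.0227) and Arid3a (1.43, adjusted p = 0.0138) were called as well.

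**Figure D4:**
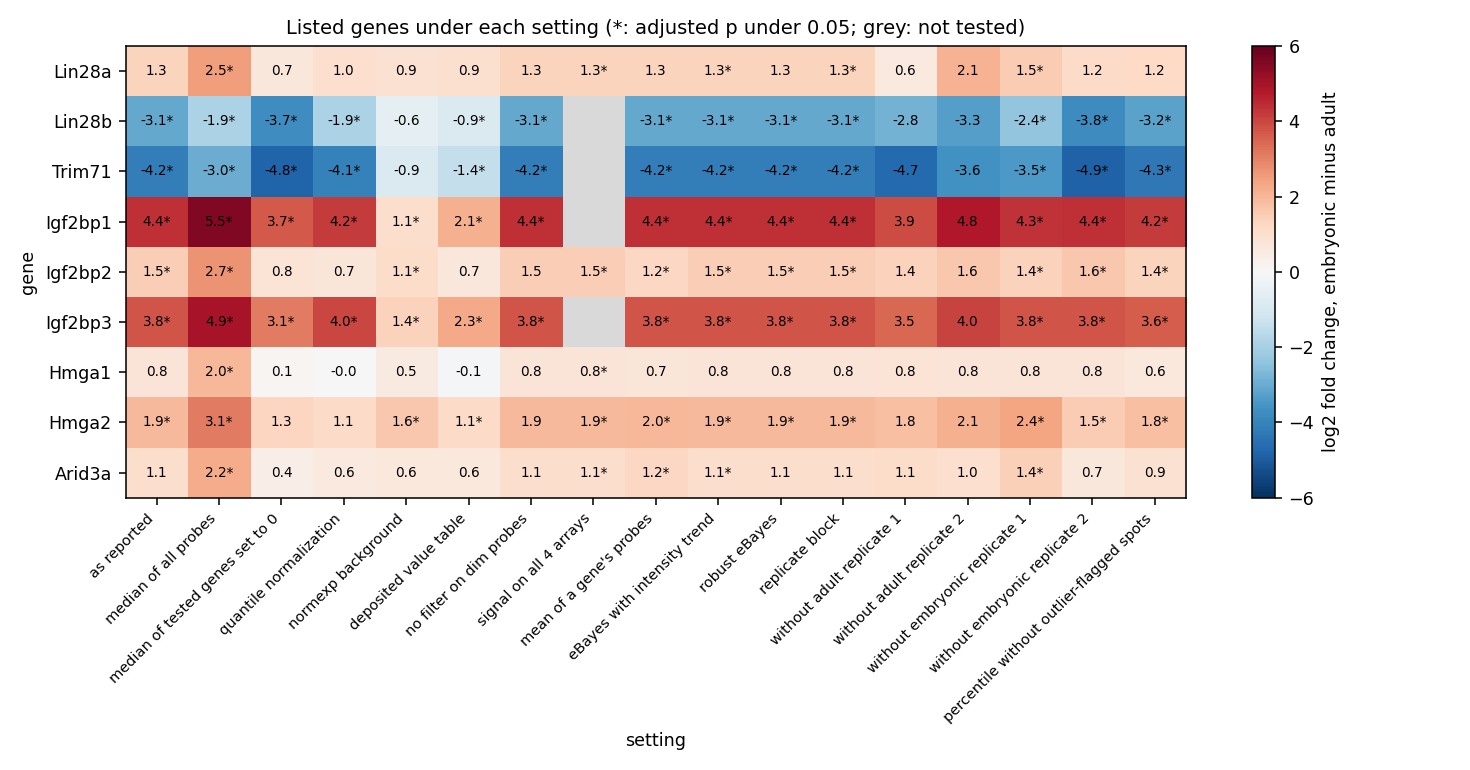
Log2 fold change, embryonic minus adult (colour and number), of each of the 9 listed genes (y axis) under the reported and 16 other settings (x axis), with an asterisk at an adjusted p under 0.05 and grey where the gene was not tested. Igf2bp1 and Igf2bp3 keep their direction throughout and lose their call only without an adult array, and Hmga1 changes sign with quantile normalization and in the deposited table.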

How the data were processed

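RNA from 2 embryonic and 2 adult sphere samples, 25 ng each, was labelled with Cy3 and hybridised to 4 Agilent 1-colour arrays, per the labels' protocols. Per the file headers, the deposited spot intensity was made by Agilent Feature Extraction 10.7.3.1 and is background-subtracted and spatially detrended array by array. In the authors' deposited value table the intensity values are linear, and their log2 values followed the spot signal of the same array (r from 0.994 to 0.998, column medians 35.7 and 35.1 for embryonic and 34.4 and 35.0 for adult arrays). Its processing and centring are not given in the sources used here, so it served as an alternative only.

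The processed signal was divided by the array's 75th percentile over all spots that are no controls, and log2 taken. Spots marked as outliers were left out and spots of a probe averaged. No spot was saturated. Symbols came from RefSeq accessions without versions, through the GRCm38.p6 annotation (28026 of 55681 probes, 50.3%). A gene was its tested probe of highest mean signal, probes well above background on all 4 arrays first. Groups were compared with limma 3.58.1 (lmFit, eBayes) in R 4.3.3, checked on simulated data, without covariates. For a bound, each dim array entered with its own reading or with its lowest reading well above background, whichever was higher, and the mean of these was set against the mean of the bright group. It leaves out the error of the means and holds for its scaling and background subtraction.

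The 9 genes and the context lists were chosen with earlier results of these data known. From each context list at most 5 genes with the smallest adjusted p are named, at most 3 a direction, and Igf2, Myc, Dicer1 and Il6 whatever their values. One gene that this rule names is not reported here. Cdkn2a, Cdkn2b, the pluripotency genes given without values and the endothelial and T lineage markers named singly were named after their values were seen. Likeness to a listed gene is the root mean square difference of gene-centred log2 signals over the 4 arrays. The alternatives cover scaling, background correction, the filter on dim probes, the choice of probe, the eBayes prior, a replicate block and each array left out. The normexp alternative (offset 50) used the median spot signal. The percentile without outlier spots was added after seeing the data. The replicate numbers share no stated origin, and with 2 pairs they do not pair the arrays.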

Additional observations from a re-analysis of the deposited data

How the results depend on the processing

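The percentile scaling decides how many genes count as higher. Against 4928 higher and 2385 lower genes, 9833 were higher with the median of all probes, 1041 with the tested genes' median at 0, 2888 with quantile normalization, 2527 with normexp and 930 with no filter on dim probes, while 819 were lower with normexp and 329 with signal asked on all 4 arrays. Of the listed genes 4 were higher and 2 lower. The number higher was 7 with the median of all probes and 2 each with the tested genes' median at 0, with quantile normalization and with no filter, and the number lower was 0 with normexp and with signal asked on all 4 arrays, where Lin28b and Trim71 were not tested. Leaving out 1 array each gave 0 to 5049 genes higher and 0 to 2599 lower, and 0 to 6 listed genes higher and 0 to 2 lower, the zeros coming without either adult array. Hmga1 turned to -0.03 with quantile normalization and to -0.14 in the deposited table. The cause was not tested. With the replicate number as a replicate block 4622 genes were higher and 2402 lower, and Lin28a was called (adjusted p = 0.0485). Same-numbered arrays deviated together with a correlation of 0.07 across 13368 genes. With the percentile taken without outlier spots, 54.1 in place of 66.0 on adult array 2, 3974 genes were higher and 2435 lower. Signals near background limit Lin28b, Trim71, Igf2bp1 and Igf2bp3 to bounds, and 2 arrays a group limit all estimates.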

Other observations

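Relatives of the listed genes by family or fold were mostly higher in embryonic spheres at the scaling used. Of 9 listed, 8 were tested and 6 rose, beside 36.1% of all tested genes called higher. In limma 0 fell, and 0 fell also at an unadjusted p under 0.05. Called lower were 17.5% of all tested genes and 2.35% of those measured on all 4 arrays. The median log2 fold change of the list was 1.36, beside 0.79 over all tested genes. Trim32, a TRIM-NHL protein like Trim71, rose by 1.49 (SE 0.31, adjusted p = 0.0156), the HMG-box gene Hmgb2 by 1.95 (SE 0.41, adjusted p = 0.0162) and the cold shock domain gene Ybx3 by 1.31 (SE 0.33, adjusted p = 0.0241). None of the 6 was called with the tested genes' median at 0.

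Likeness to a listed gene was ranked only among tested genes well above background on all 4 arrays. In that set the genes most like Igf2bp3 were Hif3a (root mean square difference 0.183 log2 units, log2 fold change 3.99) and Tenm4 (0.204, 3.47). Those nearest to Igf2bp1 were Gdf10 (0.214, 4.22) and again Hif3a (0.300). Dgat2 (0.0365, 1.88) and Stxbp3-ps (0.0395, 1.99) lay nearest to Hmga2, Rcor1 (0.0238, 1.49) and Smcr8 (0.0257, 1.51) to Igf2bp2. Nearest to Lin28b in that set were Reep2 (0.166, -3.04) and the interferon-induced gene Zbp1 (0.170, -3.14). Nearest to Trim71 in it were 2610318N02Rik (0.298, -4.56) and the olfactory receptor gene Olfr1383 (0.416, -3.64). Genes dim on any array were not ranked, and some of them lay closer to Lin28b and Trim71 than the genes named. Only 4 arrays enter this measure. For Igf2bp1, Igf2bp3, Lin28b and Trim71 the readings on 2 of the 4 arrays are not well above background, so these distances and fold changes rest in part on background readings and have no exact order.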
